A study of Mus musculus with 12 samples.

Results

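The cytochrome P450 family was examined in the small intestine of mice fed 2 kinds of fat. Its members were taken as all genes whose symbol is Cyp followed by a digit, apart from Cyp51 and pseudogenes, and which had a probe set naming that gene alone. This gave 84 genes of the 19937 with such a probe set. Of these, 33 P450 genes were bright enough to be tested, out of 11962 tested genes, and the other 51 lay below the level needed (a geometric mean intensity of 85.6).

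The study hybridized total RNA of the small intestine of 12 wildtype male FVB mice to Affymetrix whole-transcript arrays, 1 mouse per array. Control mice (6) ate a control high-fat diet and the other mice (6) a diet in which the ratio of polyunsaturated to saturated fat was low, here called the low P/S diet, both for 8 weeks. The age label of every mouse is 8 weeks, and no allele or agent besides the diet is named for either group. The series title places the diets in a study of saturated fat and cholesterol excretion through the intestine. Which stretch of the small intestine was taken, and at what time of day or after what fast, is not stated in the labels.

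P450 enzymes are haem proteins that insert oxygen into lipids, steroids and foreign compounds, using electrons handed on by partner proteins. Those of families 1 to 3 mainly oxidize drugs and other foreign compounds, and in part polyunsaturated fatty acids, and enterocytes carry many of them as a first barrier to what is eaten. Family 4 enzymes hydroxylate fatty acids at or near the far end of the chain, and smaller families make bile acids, vitamin D hormone, retinoic acid breakdown products and steroid hormones.

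Intensities are linear, per-group values are the lowest, median and highest of 6 arrays, and group levels are geometric means. Differences are low P/S minus control in log2 units ± standard error from limma, with Benjamini-Hochberg adjusted p over all 11962 genes and a threshold of 0.05. Median intensity per array ran from 91.9 to 99.5, no pair of arrays was identical, and arrays correlated between 0.976 and 0.994. As a check of the tissue label, 10 of 10 markers of small intestinal enterocytes were bright enough to be tested. Summed markers of smooth muscle ran from 6588 to 9738 in controls and from 5201 to 7813 on the low P/S diet, and those of exocrine pancreas from 475 to 538 and from 454 to 543. In bulk tissue, fewer cells of a type and less RNA per cell cannot be told apart. Several P450 genes are close paralogs, and how far their probes share target RNA was not tested.

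The P450 genes leaned to lower levels on the low P/S diet. Of the 33 tested, 15 were lower and 3 higher, while 15 did not pass. Among all tested genes 25.7% passed in either direction, 7.87% as lower and 17.8% as higher; after quantile normalization these were 12.9% and 14.8%, with 18 P450 genes lower and 3 higher. The median P450 difference was -0.16, against 0.02 over all tested genes, and 22 of the 33 P450 differences were negative. One of the 15, Cyp4f15, passed the level filter only through the control arrays; without it 14 of 32 were lower, 21 were negative and the median was -0.15. Most of the lower P450 genes moved little: 5 of the 15 fell by at least 1.5-fold. Among these 5, Cyp2c55 had a low P/S mean right at the level filter. The arrays of the 2 diets did not overlap for 7 tested P450 genes. In 5 of them every low P/S array lay below every control array, which held for 3.9% of all tested genes, and in 2 every low P/S array lay above, against 6.86%. P450 genes were somewhat noisier than the rest, with a median standard error of 0.082 against 0.061.

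**Figure D1:**
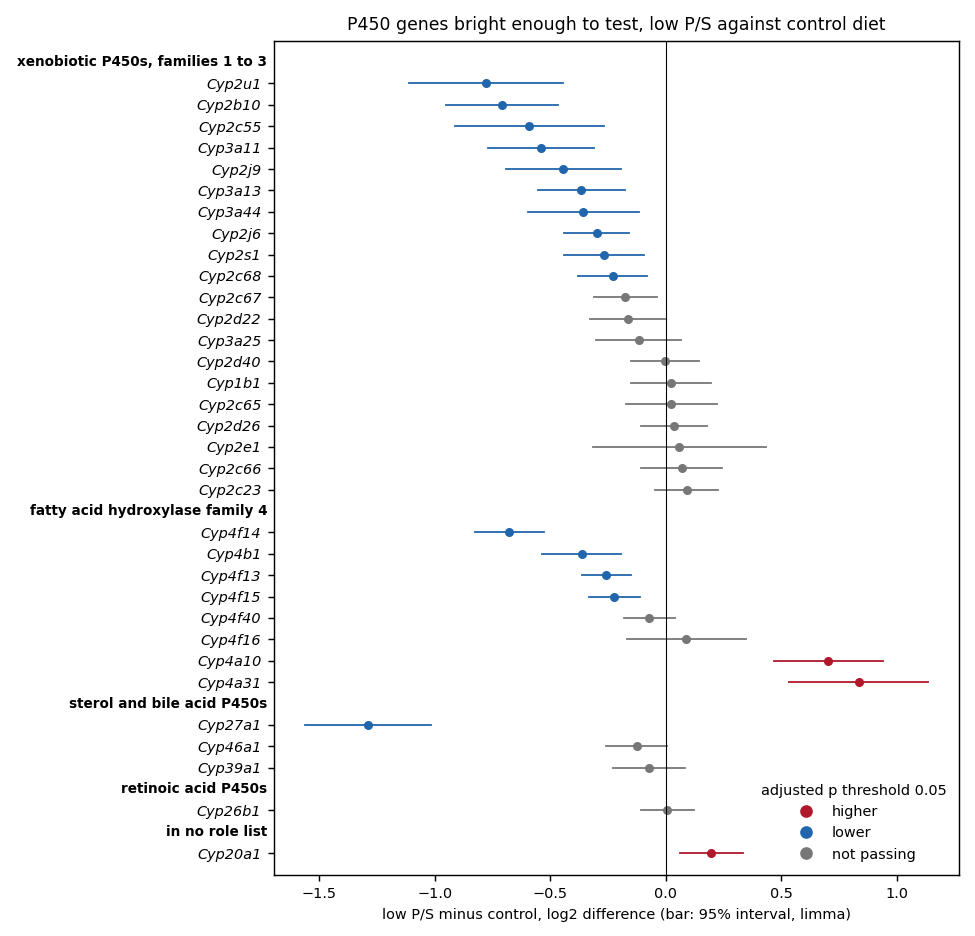
Log2 difference, low P/S minus control (horizontal axis), for the 33 tested P450 genes, grouped by role. Points are limma estimates from 6 arrays per diet, bars their 95% intervals, and colour the call; Cyp27a1 lies farthest to the left at -1.29 and Cyp4a31 farthest to the right at 0.84.

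Sterol and bile acid genes were led by Cyp27a1 (probe set 10347481), a mitochondrial enzyme that hydroxylates the side chain of cholesterol and of bile acid precursors. Its intensity was 694, 997 and 1285 in control arrays and 352, 364 and 518 in low P/S arrays. Every low P/S array lay below every control array. The difference was -1.29 ± 0.13, 2.44-fold lower (limma, Benjamini-Hochberg adjusted p = 9.56e-06). Both enterocytes and macrophages express Cyp27a1. In the same arrays 4 of 5 tested macrophage markers were higher while Adgre1 was dim, and their summed intensity was 1727 to 2161 in controls and 2090 to 2742 on the low P/S diet. Of the 10 enterocyte markers 4 (Vil1, Sis, Lct and Anpep) were lower and 1, Cdx2, was higher, with sums of 61875 to 81746 and 55138 to 64713. Of all tested genes, 17.8% were higher and 7.87% lower. The part of these marker shifts in the P450 results was not tested.

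The other sterol P450 genes moved little or were dim. Cyp46a1, a cholesterol hydroxylase known mostly from neurons, went from 94.8 to 86.9 with an interval of -0.26 to 0.01 (adjusted p = 0.151). Cyp39a1, which hydroxylates an oxysterol, differed by -0.07 (interval -0.23 to 0.08). Cyp7a1, the rate-limiting enzyme of bile acid synthesis in liver, was too dim to test at 42.3 and 41.4. Cyp7b1 and Cyp8b1, which also act on sterols, were dim as well, at 78.7 and 87.2 for Cyp7b1 and 76.1 and 80.5 for Cyp8b1. Cyp7a1 is also a liver marker, and in this tissue Alb, the albumin gene, was at 217 and 219, while Tat, Apoh and Fgb were dim. Of 5 tested genes on the liver marker list 1 was higher, near the 17.8% of all tested genes. It was Cps1, whose levels of 3173 and 4295 were far above those of Alb. The cells that Cps1 came from were not tested.

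The largest group, families 1 to 3, held 52 measured genes, of which 20 were tested. By limma none was higher, 10 were lower and 10 did not pass, with a median of -0.20; at an unadjusted p under 0.05, 0 were higher and 12 lower, against 25.4% and 12.7% of all tested genes. Cyp2b10 (10551197), a drug-metabolizing enzyme induced through the receptor CAR, had control intensities of 3115, 3765 and 4680 and low P/S intensities of 1778, 2319 and 2951. No array of one diet reached the range of the other, and the fall was -0.71 ± 0.11, 1.63-fold (adjusted p = 0.000453). Cyp3a11 (10535704), the main mouse relative of human drug-oxidizing CYP3A4, stood at 1794, 2096 and 2825 and at 1353, 1432 and 1792. These groups just missed each other, and control arrays 1 and 2 were the highest, at 2825 and 2664. The difference was -0.54 ± 0.11, 1.45-fold lower (adjusted p = 0.00221).

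Cyp2u1 (10502214), which hydroxylates long-chain fatty acids, was spread unevenly. Control arrays lay at 304, 370.0 and 389, but the low P/S arrays ran from 151 over 182 to 334. Low P/S arrays 5 and 6, at 289 and 334, stood apart from the other four, and array 6 reached into the control range. The SD of the low P/S log2 values was 0.46 against 0.13 in controls, and the difference was -0.78 ± 0.16 (1.71-fold lower, adjusted p = 0.00225). Cyp2c55 (10463005), an arachidonic acid hydroxylase, lay at 90.0, 130.2 and 178 in controls and at 70.6, 87.6 and 96.3 in low P/S arrays. The groups overlapped, since the spread among controls was wide, with arrays 1 and 2 at 178 and 173. Its difference was -0.59 ± 0.15, 1.51-fold lower (adjusted p = 0.00986). The low P/S mean of Cyp2c55, 85.594, lay at the level filter of 85.583, so it passed that filter almost wholly through the controls. Near this level the size of the fall is uncertain.

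The other 6 lower genes of families 2 and 3 had smaller falls and overlapping groups. Cyp3a13 (2601 to 2020, 1.29-fold, adjusted p = 0.00692) is a Cyp3a enzyme of the intestine. The arachidonic acid epoxygenase relatives Cyp2j9 and Cyp2j6 fell 1.36-fold (346 to 254) and 1.23-fold (2787 to 2267). Cyp3a44 fell 1.28-fold (169 to 132, adjusted p = 0.0294), and 8 of 23 alternative settings lost it, with a highest adjusted p of 0.124. Cyp2s1, a P450 of epithelia, fell 1.20-fold (566 to 469.9, adjusted p = 0.0243) and was lost in 6. Cyp2c68 fell 1.17-fold (406 to 346, adjusted p = 0.026) and was lost in 9.

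**Figure D2:**
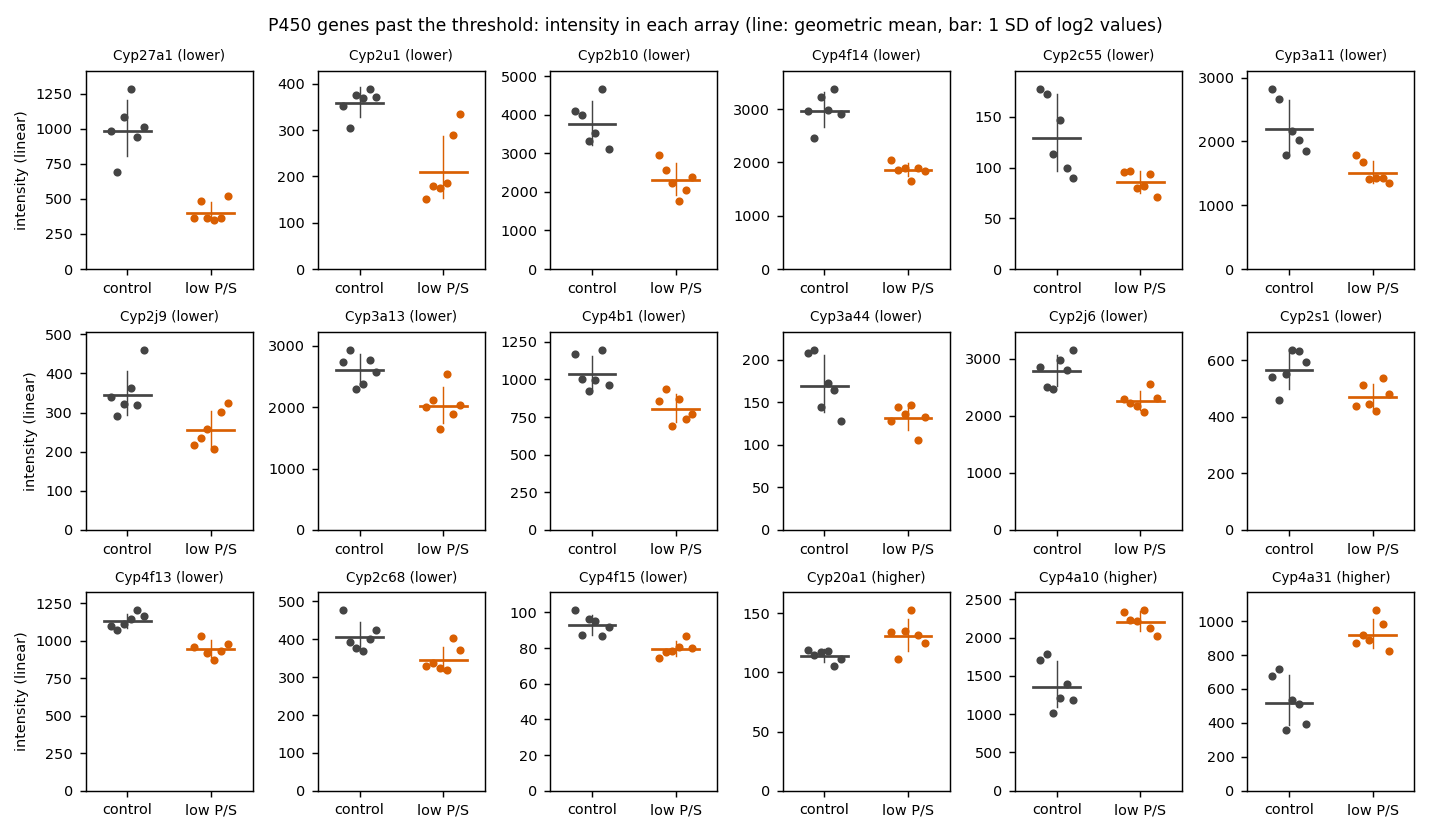
Linear intensity (vertical axis, from 0) in each of the 6 control and 6 low P/S arrays for the 18 P450 genes that passed. Lines mark geometric means and bars 1 SD of the log2 values; Cyp27a1, Cyp2b10, Cyp4f14, Cyp3a11 and Cyp4f13 lie wholly below the controls on the low P/S diet, and Cyp4a10 and Cyp4a31 wholly above.

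Several members of families 1 to 3 were near the same level on both diets. Cyp2d26 (4782 and 4901; difference 0.04, interval -0.11 to 0.18), Cyp2c66 (2614 and 2742; 0.07, interval -0.11 to 0.25) and Cyp2c65 (2370 and 2412; 0.03, interval -0.17 to 0.22) did not pass. Cyp3a25, of the same subfamily as Cyp3a11, had a difference of -0.12 (4112 and 3793; interval -0.30 to 0.07; adjusted p = 0.341). Cyp2e1, an ethanol-oxidizing enzyme, was so variable between controls (63.3 to 149) that its interval ran from -0.32 to 0.44. The aryl hydrocarbon receptor target Cyp1b1 also did not pass (0.02 ± 0.08), and Cyp1a1 was too dim, at 53.1 and 54.1. Cyp2c67 came closest to the threshold (-0.17 ± 0.06, adjusted p = 0.0574) and Cyp2d22 followed (-0.16 ± 0.08, adjusted p = 0.125).

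Family 4 held called genes in both directions. It had 15 measured genes and 8 tested ones, of which 2 were higher, 4 were lower and 2 did not pass. Among all tested genes 17.8% were higher and 7.87% lower, so 2 of 8 higher was near the share of all genes. Without Cyp4f15, which passed the level filter only through the controls, 3 were lower. The higher genes were the Cyp4a hydroxylases of medium and long fatty acids, known targets of the lipid-sensing receptor PPAR alpha. Cyp4a10 (10507163) lay at 1019, 1302 and 1781 in controls and 2022, 2226 and 2356 in low P/S arrays. All low P/S arrays exceeded all controls, among which arrays 1 and 2 were the highest at 1713 and 1781. The rise was 0.70 ± 0.11, 1.63-fold (adjusted p = 0.000409). Cyp4a31 (10507171) lay at 358, 524 and 717 and at 821, 904 and 1063. Its rise was 0.84 ± 0.14, 1.79-fold (adjusted p = 0.000671), with control arrays 1 and 2 again highest, at 678 and 717. Controls varied far more than low P/S arrays in both genes, with SDs of log2 values of 0.32 against 0.08 and of 0.40 against 0.13. Another Cyp4a probe set, 10507177, names Cyp4a32, Cyp4a31 and Cyp4a10 together and so cannot be assigned to 1 gene. It rose from 1494 to 2865 (0.94 ± 0.17, 1.92-fold, adjusted p = 0.000857), with every low P/S array above every control array. Cyp4a14, another Cyp4a gene and PPAR alpha target, was too dim to test, at 54.4 and 52.5.

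The lower genes of family 4 were Cyp4f14, Cyp4b1, Cyp4f13 and, at the edge of the level filter, Cyp4f15. Cyp4f14 (10449940), which hydroxylates fatty acids and inflammatory lipids, was at 2450, 2972 and 3382 in controls and at 1654, 1873 and 2039 on the low P/S diet. The groups were clear of each other, and the fall was -0.68 ± 0.07, 1.60-fold (adjusted p = 1.41e-05). Cyp4f13 (10449955) was also below every control (1068 to 1201 in controls, 869 to 1034 on low P/S; -0.26 ± 0.05, adjusted p = 0.00171). Cyp4b1 fell from 1037 to 806 (1.29-fold, adjusted p = 0.00428). Cyp4f15 stood at 92.9 and 79.6; it passed the level filter only through the controls, where it was higher, so its call supports nothing. Cyp4f16 (1635 and 1740; interval -0.17 to 0.35) and Cyp4f40 (-0.07 ± 0.05) did not pass. Outside the named roles, Cyp20a1, a P450 without a settled substrate, rose 1.15-fold (114 to 131, adjusted p = 0.0331) and lost its call in 7 of the 22 settings that tested it; the filter at the 60th percentile left it out as dim.

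The vitamin D and retinoic acid genes gave no called gene. Cyp2r1, a vitamin D hydroxylase, and Cyp27b1, which makes the active hormone, were dim. Their levels were 71.7 and 85.9 for Cyp2r1, and 64.1 and 60.7 for Cyp27b1. Cyp26b1, which breaks down retinoic acid, was tested at 105 and 106 (interval -0.11 to 0.12; adjusted p = 0.939), while Cyp26a1 and Cyp26c1 were dim. None of the 5 measured steroid hormone P450 genes was bright enough. Over the 51 dim P450 genes, differences ran from -0.31 to 0.26, and 41 were negative. Their median was -0.05, close to the -0.04 of all dim genes. Fitted with no level filter, Cyp2b9 (73.6 to 59.4), Cyp2b13 (45.8 to 41.4) and Cyp2g1 passed as lower and Cyp2r1 as higher. Their limma adjusted p were 0.00241, 0.0202, 0.0421 and 0.0168. In that fit 5.13% of all genes were lower and 10% higher. Of the 51 dim P450 genes, 3 lower was near that share and 1 higher was under it. Just below the filter lay Cyp7b1, Cyp2c29 and Cyp2w1 at means of 82.8, 83.2 and 83.4, and just above it Cyp4f15, Cyp46a1 and Cyp1b1 at 86.0, 90.7 and 103.

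P450 genes lie in tandem clusters, and in RefSeq gene order (GRCm38.p6) 75 P450 genes, dim and unmeasured ones included, fell into 10 clusters of neighbours at most 5 other genes apart. Calls differed within some clusters and not in others. Among all tested genes 17.8% were higher and 7.87% lower. In the cluster from Cyp4x1 to Cyp4b1, Cyp4a10 and Cyp4a31 were higher, Cyp4b1 was lower, 4 genes were dim and 3 had no probe set of their own. In the Cyp4f cluster the lower genes Cyp4f14 and Cyp4f13 were the last P450 genes at one end. Cyp4f15 came before them, with 4 other genes between Cyp4f15 and Cyp4f14. It was called lower too, but it passed the level filter only through the controls, so its call adds nothing. In the Cyp2j cluster both tested genes, Cyp2j6 and Cyp2j9, were lower, as were both tested genes, Cyp2s1 and Cyp2b10, of the cluster from Cyp2s1 to Cyp2t4. In the Cyp2c cluster, Cyp2c55 (-0.59) stood next to Cyp2c65 (0.03) and Cyp2c66 (0.07). Farther along, Cyp2c68 (-0.23) was lower too, next to Cyp2c67 (-0.17), which did not pass, and 7 genes of the cluster were dim. In the Cyp3a cluster Cyp3a44 and Cyp3a11 were lower beside Cyp3a25, which did not pass. The Cyp2d cluster of 8 genes had none called, but 5 of them were too dim to test and 3 did not pass.

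**Figure D3:**
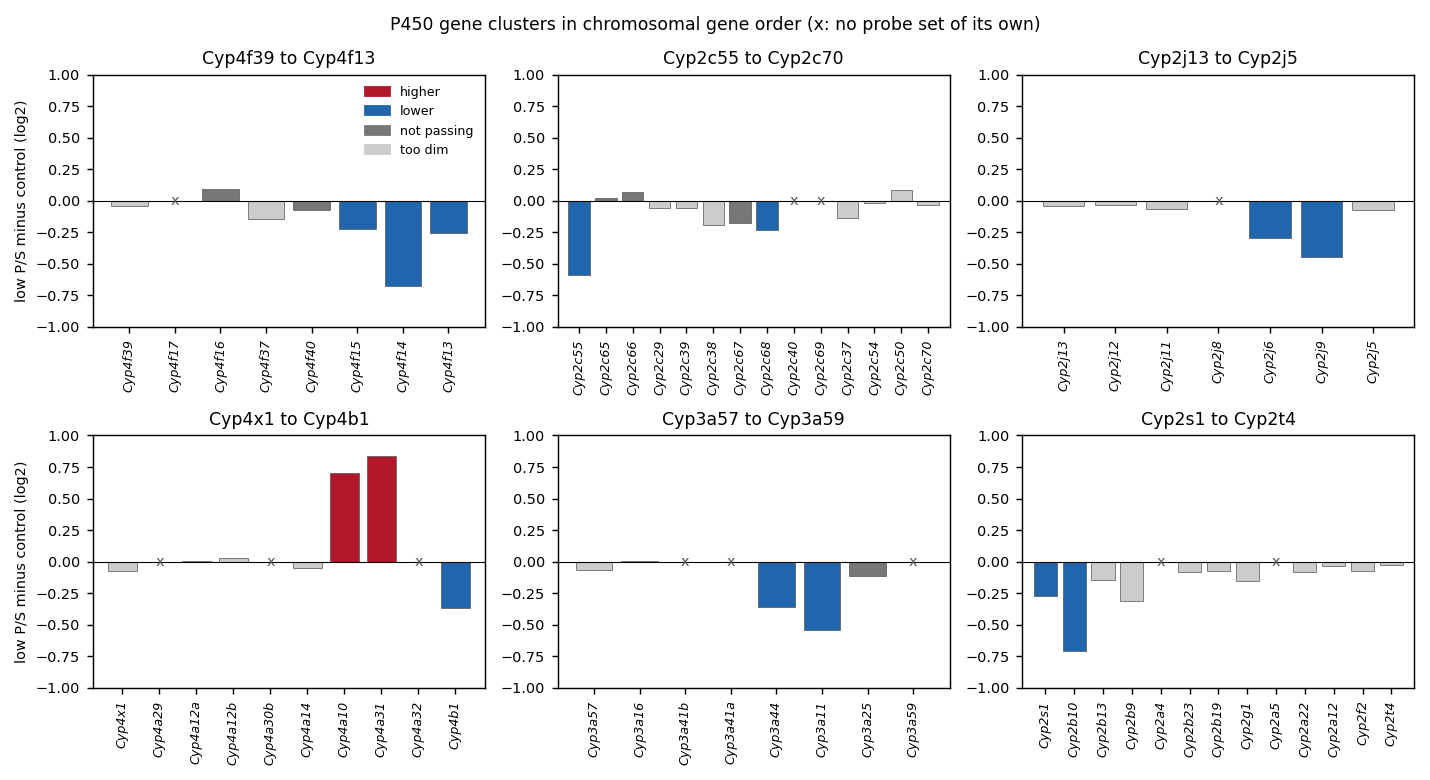
Log2 difference, low P/S minus control (vertical axis), for P450 genes in chromosomal order within 6 clusters that hold a called gene. Bars are coloured by call and x marks a gene without its own probe set. Cyp4a10 and Cyp4a31 are higher in the cluster where Cyp4b1 is lower. Cyp4f14 and Cyp4f13 come last among the P450 genes of theirs, after Cyp4f15, which passed the level filter only through the controls.

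Of 7 probe sets that name several genes with a P450 among them, 1 was higher and 3 were lower. Among all tested genes 17.8% were higher and 7.87% lower. None of the 7 can be assigned to 1 gene. Those for Cyp3a and Cyp4a genes share names with genes given above, so they are not separate evidence. Probe set 10535683 (Cyp3a41b, Cyp3a44, Cyp3a41a and Cyp3a11) fell from 446 to 320.0, with all low P/S arrays below all controls (-0.48 ± 0.06, adjusted p = 8.56e-05). Probe set 10535669 (Cyp3a41b, Cyp3a44 and Cyp3a41a) fell from 5152 to 3450.2 with overlapping groups (-0.58 ± 0.11, adjusted p = 0.00155). Probe set 10578448 names Cyp4v3, a fatty acid hydroxylase, with the protease gene Klkb1, and fell from 1271 to 929 (adjusted p = 6.28e-05). Those for Cyp2c69, Cyp2c67, Cyp2c68 and Cyp2c40 (-0.14 ± 0.05, adjusted p = 0.0564) and for Cyp3a59, Cyp3a57 and Cyp3a25 (-0.17 ± 0.12, adjusted p = 0.307) did not pass, and that for Cyp2a5 and Cyp2a4 was dim.

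**Figure D4:**
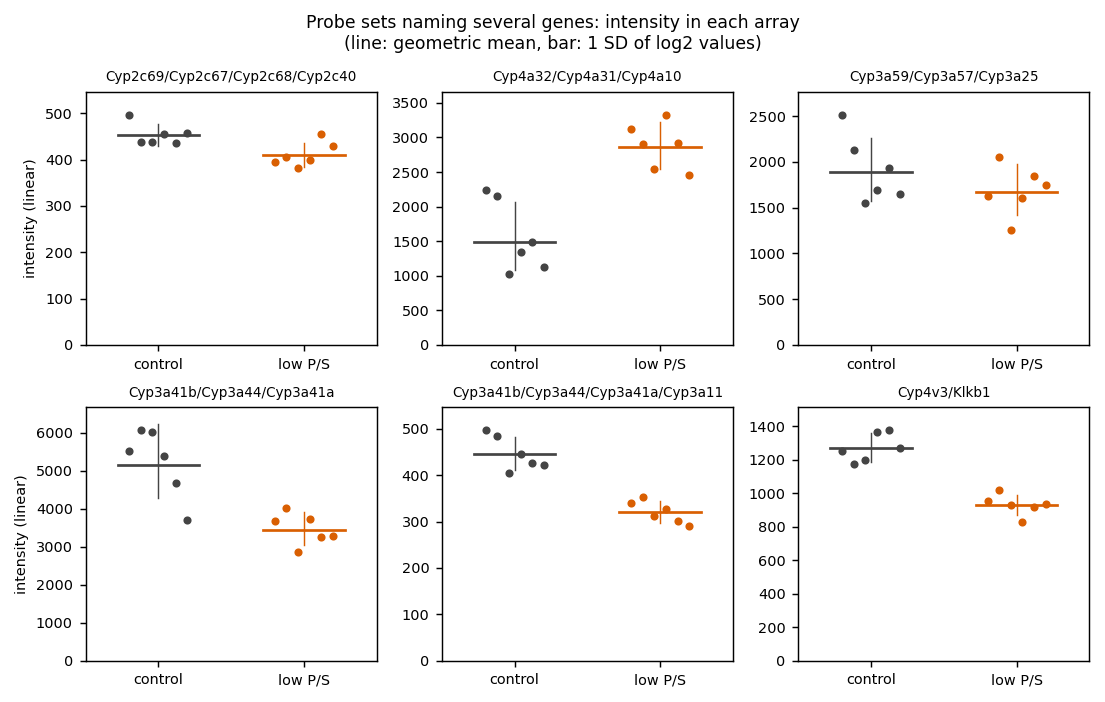
Linear intensity (vertical axis, from 0) per array for the 6 tested probe sets that name several genes, with geometric means and 1 SD of log2 values. The Cyp4a probe set is higher in every low P/S array, and 2 of the 3 Cyp3a probe sets and that for Cyp4v3 with Klkb1 are lower.

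Partners and regulators of the enzymes were taken from lists apart from the P450 genes. Haem is part of every P450 enzyme, and of 10 tested haem genes 4 were higher by limma and none lower, against 17.8% and 7.87% of all tested genes. At an unadjusted p under 0.05 the counts were 5 and 0, against 25.4% and 12.7%. Alas1, the rate-limiting enzyme of haem synthesis, rose from 1060 to 1498 (0.50 ± 0.09, adjusted p = 0.000904), and Cpox (1.18-fold) and Ppox (1.24-fold), later steps of the pathway, rose as well. Blvra, a haem breakdown enzyme, rose 1.13-fold (adjusted p = 0.04), which 11 of 23 settings lost. The main electron donor of microsomal P450 enzymes, Por, and the mitochondrial Fdxr were not analysed here. Among 7 tested members of the electron partner list only Pgrmc2, a membrane haem-binding protein, passed, rising from 582 to 1023 (0.81 ± 0.12, 1.76-fold, adjusted p = 0.000321). Of the list of Cyp51 and synthases, Cyp51, the sterol demethylase of cholesterol synthesis, rose 2.35-fold (177 to 415, adjusted p = 3.41e-05). None of 2 tested epoxide hydrolase genes and none of 4 flavin monooxygenase genes passed in limma; at an unadjusted p under 0.05 these counts were 0 and 1.

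Of 18 tested regulators, 3 were higher, near the 17.8% of all tested genes, 5 were lower, against 7.87%, and 10 did not pass. The PAR bZIP genes, which drive P450 genes around the clock, were all lower: Dbp fell 4.10-fold (673 to 164, adjusted p = 4.9e-05), Tef 2.01-fold (339 to 169, adjusted p = 5.07e-05) and Hlf 1.44-fold (139 to 96.7, adjusted p = 0.00732). Dissection times are not given, so a difference of clock time cannot be told apart from diet. The bile acid receptor gene Nr1h4 rose 1.35-fold, the oxysterol receptor gene Nr1h3 rose 1.20-fold, and Nr0b2, a repressor induced through Nr1h4, rose 2.64-fold (87.8 to 232, adjusted p = 1.88e-05). The glucocorticoid receptor gene Nr3c1 (1.15-fold, adjusted p = 0.0086) and the vitamin D receptor gene Vdr (1.14-fold, adjusted p = 0.0469, lost in 13 of 23 settings) were lower. The xenobiotic receptor genes Nr1i2 (0.11 ± 0.07, adjusted p = 0.29) and Nr1i3 (-0.09 ± 0.09, adjusted p = 0.461), the PPAR alpha gene Ppara (-0.21 ± 0.08, adjusted p = 0.055) and the aryl hydrocarbon receptor gene Ahr (0.05 ± 0.06, adjusted p = 0.555) did not pass.

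**Figure D5:**
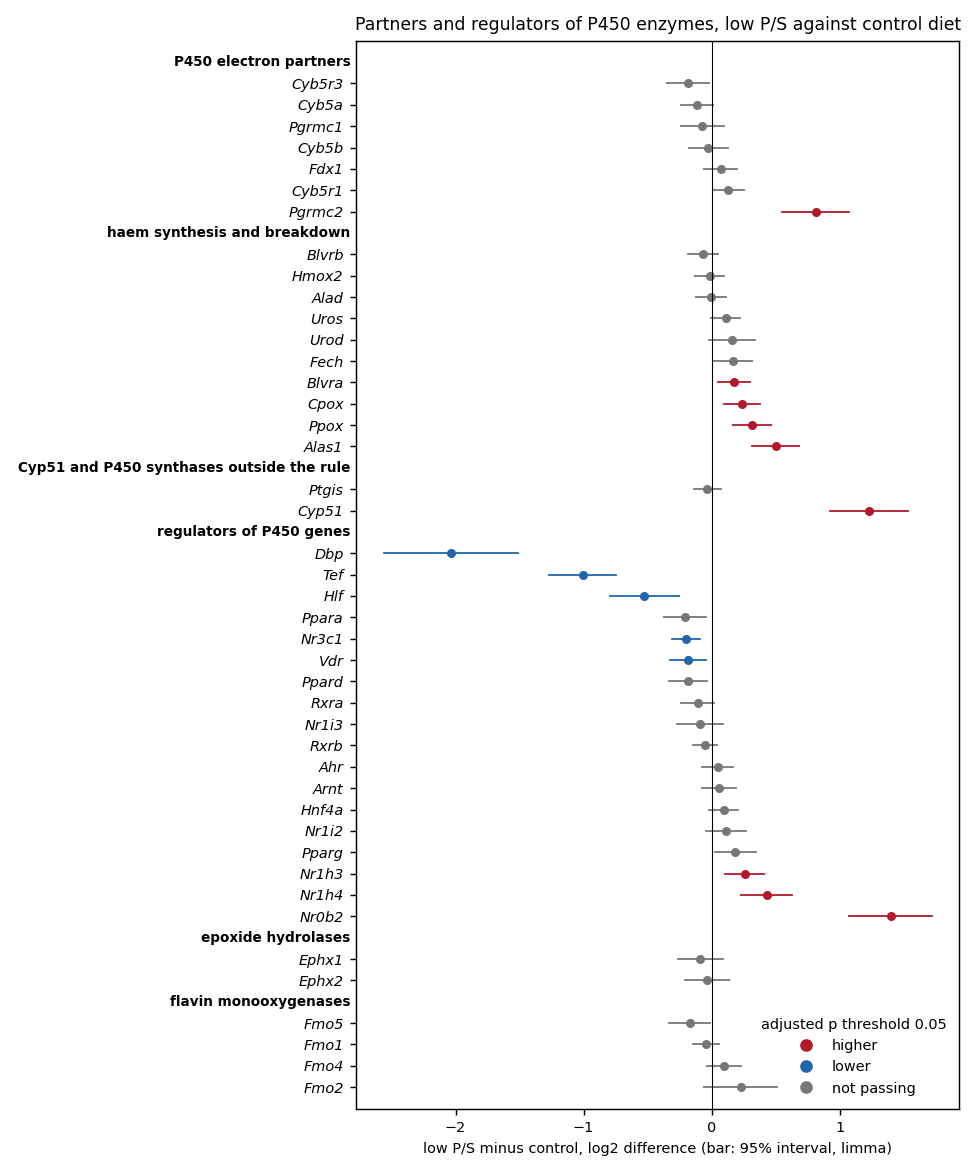
Log2 difference, low P/S minus control (horizontal axis), with 95% intervals from limma, for tested partners and regulators of P450 enzymes, grouped by role. Nr0b2 and Cyp51 lie farthest to the right, at 1.40 and 1.23, and Dbp lies farthest to the left at -2.04.

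Promoters of the lower genes whose arrays did not overlap are shown so that they can be read beside the regulators above. The 250 bases before a listed start come from RefSeq (GRCm38.p6, the C57BL/6J reference, whereas the mice were FVB). That start is the start of the RefSeq gene for Cyp2b10 and Cyp3a11, but not for Cyp27a1, Cyp4f13 and Cyp4f14. In all, 63 P450 genes had an entry, among them 15 of the 18 called, without Cyp4a10, Cyp4a31 and Cyp2u1. Capitals mark letters searched on both strands, with overlaps allowed, in windows of 300 bases reaching 50 past the start. The letters were TTATGNAA (a form of the D-box bound by Dbp, Tef and Hlf), AGGTCA and AGTTCA (nuclear receptor half-sites), GCGTG (core of the aryl hydrocarbon receptor site) and TATAAA. Cyp27a1 is at chr1:74713285-74713534 (plus strand), Cyp2b10 at chr7:25897408-25897657 (plus), Cyp3a11 at chr5:145879855-145880104 (minus), Cyp4f13 at chr17:32947362-32947611 (minus) and Cyp4f14 at chr17:32917088-32917337 (minus, 1 of 4 listed starts).
Cyp27a1: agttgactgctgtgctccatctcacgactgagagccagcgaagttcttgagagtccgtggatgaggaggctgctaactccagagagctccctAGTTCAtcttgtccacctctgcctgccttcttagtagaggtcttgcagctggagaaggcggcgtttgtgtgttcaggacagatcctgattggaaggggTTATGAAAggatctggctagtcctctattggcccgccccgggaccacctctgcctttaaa
Cyp2b10: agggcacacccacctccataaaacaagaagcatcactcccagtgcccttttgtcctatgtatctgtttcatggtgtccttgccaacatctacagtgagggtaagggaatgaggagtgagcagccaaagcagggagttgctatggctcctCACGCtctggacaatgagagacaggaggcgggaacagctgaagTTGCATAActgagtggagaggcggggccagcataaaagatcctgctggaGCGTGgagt
Cyp3a11: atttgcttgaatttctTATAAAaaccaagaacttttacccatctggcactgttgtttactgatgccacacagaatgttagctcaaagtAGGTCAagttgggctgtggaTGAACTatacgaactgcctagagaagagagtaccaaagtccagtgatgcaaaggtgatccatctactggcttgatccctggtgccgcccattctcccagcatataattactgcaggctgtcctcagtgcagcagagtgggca
Cyp4f13: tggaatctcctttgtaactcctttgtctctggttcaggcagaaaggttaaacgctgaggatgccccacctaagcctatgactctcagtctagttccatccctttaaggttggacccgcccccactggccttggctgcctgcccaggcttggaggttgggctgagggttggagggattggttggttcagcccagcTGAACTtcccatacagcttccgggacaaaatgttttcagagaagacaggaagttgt
Cyp4f14: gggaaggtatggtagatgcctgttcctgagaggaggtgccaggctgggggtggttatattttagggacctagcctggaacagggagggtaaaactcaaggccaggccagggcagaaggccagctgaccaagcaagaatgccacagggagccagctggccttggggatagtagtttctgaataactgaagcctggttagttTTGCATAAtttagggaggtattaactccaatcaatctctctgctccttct

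Matches were described, not tested, and a match is not a binding site. Genes were split into lower and other by calls from these same data. Whether Dbp, Tef or Hlf act on them was not tested. The 14 lower genes with an entry include Cyp4f15, which passed the level filter only through the controls and held none of the letters. The D-box letters were in the promoters of Cyp27a1, Cyp2b10 and Cyp4f14, 3 of the 14 lower genes with an entry, none of the 13 other tested genes and 5 of all 63. Genes were counted as holding the letters if any listed start did, and on that count 3.99% of 27025 genes held them. The nearest were 60 bases before the listed start in Cyp27a1, 58 in Cyp2b10 and 50 in Cyp4f14, in which the other 3 starts had none in the bases before them. For Cyp27a1 and Cyp4f14 the listed start is not the start of the RefSeq gene. AGTTCA was in 3 lower genes (Cyp27a1, Cyp3a11 and Cyp4f13), none of the other tested and 8 in all, against 15.7% of genes. AGGTCA was in Cyp3a11 and Cyp3a44 and in 2 of the others, against 18.1%. GCGTG stood in 4 lower genes and 4 others (35.2% of genes), and TATAAA in 3 and 7 (15.7%).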

How the data were processed

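Per the labels' protocols, 500 ng of total RNA per mouse, without rRNA reduction, was labelled for Affymetrix whole-transcript arrays. The deposited table holds linear intensity values by probe set; the authors' summarization and normalization steps are not stated in the labels, which limits the reading of small shifts shared by many genes. Of 34760 probe sets, 21640 named 1 symbol, 1321 several and 11799 none. The log2 of the deposited intensity was taken, and the brightest probe set by mean over 12 arrays was kept for each of the 19937 genes. Genes under the 40th percentile of mean level were left out before testing. All 84 P450 genes matched a RefSeq entry by Entrez ID, with 1 probe set each. Diets were compared with limma 3.58.1 (lmFit, eBayes, two-sided, diet as the only term) in R 4.3.3, with Benjamini-Hochberg adjustment over 11962 genes. Promoters and figures used Python 3.11.15, pandas 2.3.3, NumPy 2.4.6 and matplotlib 3.10.9. The members and lists were chosen with earlier results of these data known. Genes named were every called P450 gene, the 10 of highest mean level, all sterol, vitamin D and retinoic acid members, the called members of the partner lists and the genes nearest the level filter; others were named after their values were seen. The 23 alternatives are given in the closing section. Each step was first tested on simulated data. With 6 arrays per diet, their number limits the precision.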

Additional observations from a re-analysis of the deposited data

Results flagged for a closer look

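Single arrays stood apart for 2 P450 genes, among 70 sets of 6 arrays checked for the named members. Chance marks about 1 in 20 such sets. For Cyp1b1, an aryl hydrocarbon receptor target, control array 3 was at 119 against 102 for the next highest control. Cyp26a1, which breaks down retinoic acid, had low P/S array 3 at 62.2 against 56.5 for the next, at a level too dim to test. Neither gene was called.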

How the results depend on the processing

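Across 23 alternatives, P450 genes called lower numbered 11 to 18 and higher 2 to 4, against 15 and 3. The lower counts include Cyp4f15 wherever it was tested, and without it the 15 become 14. The P450 genes tested ranged from 23 with the filter at the 60th percentile to 84 with no filter. Over all genes the share lower ran from 5.13% to 12.9% and the share higher from 10% to 24.9%. Cyp27a1, Cyp2u1, Cyp2b10, Cyp4f14, Cyp3a11, Cyp3a13, Cyp4b1, Cyp2j6, Cyp4f13, Cyp4a10 and Cyp4a31 passed in the same direction in each. Cyp2c55, whose low P/S mean lay at the level filter, did wherever it was bright enough. The same held for Cyp4f15, but it passed the level filter only through the controls, so its kept calls support nothing. Quantile normalization gave 18 lower P450 genes, adding Cyp4f40, Cyp2d22 and Cyp2c67, and 3 higher. Over all genes it gave 1543 lower, against 942, and cut the share of calls that were higher from 69.4% to 53.5%, with 12.9% of genes lower. Ordinary variances per gene gave 11 lower and 2 higher and lost Cyp2j9 (adjusted p = 0.0519). Without control arrays 1 and 2, 13 were lower and 3 higher, and Cyp46a1 passed as lower (adjusted p = 0.022; 0.0317 without control 2 alone). Leaving out 1 array gave 12 to 16 lower and 2 to 3 higher. Among the named P450 genes, sign changes fell on ones that did not pass. With quantile normalization Cyp2c65 came to -0.050, Cyp2c66 to -0.0027 and Cyp2d26 to -0.0077; Cyp1b1 came to -0.00068 with array weights, and Cyp26b1 to -0.010 without controls 1 and 2. Leaving out 1 array moved Cyp1b1 from -0.036 to 0.076, Cyp26b1 from -0.026 to 0.027, Cyp2c65 from -0.028 to 0.081 and Cyp2d26 from -0.018 to 0.067. The cause was not tested. Same-numbered arrays of the 2 diets correlated at -0.11 to 0.42, and 2 of 6 matched their own number best. The labels do not say whether the numbers pair the mice, and 6 numbers are too few to settle it. With the replicate block 3 P450 genes were higher and 15 lower, the same 18 genes.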
